A study of Mus musculus with 4 samples.

Results

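Endogenous CD8 T cells carrying transcripts of the interferon-induced Ifit genes were examined in B16-F10 melanoma, a transplantable tumour line grown in C57BL/6 mice. The cells were chosen by a rule: a barcode of either endogenous library with CD8 and CD3 transcripts, no Cd4 UMI, little Lyz2, fewer than 2 UMIs of Mki67 and Top2a together, and at least 3 UMIs of Ifit1, Ifit3 and Ifit3b together. A UMI (unique molecular identifier) marks 1 captured transcript. The rule found 175 cells among 1711 non-cycling endogenous CD8 T cells, 134 of 1174 in the arm given IRF4-transduced cells (the IRF4 arm) and 41 of 537 in the arm given GFP-transduced cells (the control arm). They are called interferon-stimulated cells here, and the remaining 1040 and 496 are the other CD8 cells.

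The study had 4 single-cell 3′ RNA libraries, 1 for each group, with 17711 barcodes in all. On day 3 after implantation tumours received Pmel-1 CD8 T cells, which carry a transgenic T cell receptor for the melanoma antigen gp100 and had been transduced with IRF4-GFP or with a GFP control. Sorting on day 14 gave transferred Pmel-1 cells and host CD45+ leukocytes for each arm, so the endogenous cells themselves carried neither vector by design and every mouse of both arms also held transferred T cells. The labels give neither the number or age of the mice nor whether tumours were pooled, and the title names as the question what IRF4 does in CD8 T cells against tumours. Each group was 1 library and cells are not replicates, so no difference was tested, and every interval below is a 95% interval for counting error only.

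Type I interferons bind the receptor made of IFNAR1 and IFNAR2, and the kinases JAK1 and TYK2 then activate a transcription factor complex that holds IRF9 and binds interferon-stimulated response elements in promoters. The products include RNA sensors, antiviral effectors, the ubiquitin-like protein ISG15 and USP18, which removes ISG15 and dampens the receptor. Interferon-gamma acts through a receptor of its own and induces guanylate-binding proteins, immunity-related GTPases and antigen presentation. In tumours, T cells with this programme form a recurrent state that cuts across naive, effector and exhausted cells.

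The genes that chose the cells lie near each other on mouse chromosome 19 and carry paired copies of the response-element core. The core was searched as GAAA, any 2 bases and GAAA on both strands, in RefSeq windows of the GRCm38.p6 assembly from 250 bases before to 50 after a start site. Capitals mark the matches, on the strand of the gene, where a match on the opposite strand reads TTTC, any 2 bases and TTTC. Ifit1 (ENSMUSG00000034459, chromosome 19, 34640871 to 34650009, plus strand), Ifit3 (ENSMUSG00000074896, 34583531 to 34588731, plus strand) and Ifit3b (ENSMUSG00000062488, 34607970 to 34613401, plus strand) encode RNA-binding tetratricopeptide proteins. Their upstream stretches are shown because these genes set the rule, with that of Isg15 (ENSMUSG00000035692, chromosome 4, 156199424 to 156200818, minus strand), which the rule did not use.
Ifit1, chr19:34640773-34640825, plus strand: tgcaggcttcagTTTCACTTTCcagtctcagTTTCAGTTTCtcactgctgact
Ifit3, chr19:34583361-34583428, plus strand: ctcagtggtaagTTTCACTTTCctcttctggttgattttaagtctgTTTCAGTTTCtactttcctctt
Ifit3b, chr19:34607757-34607824, plus strand: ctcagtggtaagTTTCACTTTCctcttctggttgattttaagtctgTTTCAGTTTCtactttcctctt
Isg15, chr4:156200863-156200908, minus strand: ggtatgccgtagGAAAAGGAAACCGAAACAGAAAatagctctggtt
The matches begin 104 and 85 bases before the start site in Ifit1 and 156 and 122 before it in Ifit3. The 68 bases shown for Ifit3 and Ifit3b are letter for letter the same. These bases lie before the start site, and how reads were assigned between Ifit3 and Ifit3b was not examined. Their separate levels are therefore uncertain, and the rule sums them. In Isg15 3 overlapping matches begin between 78 and 66 bases before the start.

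Levels are CPM, meaning UMIs per 1000000: a gene's UMIs, added up across the cells of a set, relative to all UMIs of that set. Interferon-stimulated cells held 1194020 (IRF4 arm) and 539255 (control arm) UMIs, and the other CD8 cells 9049943 and 4852535. Median depth per cell was close between them, at 7240.5 against 7298 UMIs in the IRF4 arm and, for the control arm, 8271 against 7987. Median mitochondrial shares were 3.97% against 4.32% and 3.55% against 4.44%. The 2 endogenous libraries shared 18 cell barcodes and the other pairs of libraries 0 to 5, and none of the 175 cells had a shared barcode.

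Ifit transcripts varied widely among the cells chosen by them. Per cell, the 3 genes summed to 3 to 56 UMIs (median 6) for the IRF4 arm and 3 to 64 (median 5) for the control arm. Ifit3 was at 0 in 4 of 134 and 6 of 41 cells, and Ifit1 in 20 and 5, so most cells carried both. Of Usp18, the marker that the rule left out, 57 of 134 and 20 of 41 cells had a UMI, against 50 of 1040 and 30 of 496 other CD8 cells.

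Isg15 and some other genes were close on either side of the threshold, while others were not. Cells with 3 Ifit UMIs (32 and 10 cells) had 105 and 116 CPM of Isg15 in the IRF4 and control arms, and cells with 2 (80 and 23 cells) had 95.1 and 102 CPM. Across that step, from 2 to 3 Ifit UMIs, Usp18 went from 19.9 to 18.8 CPM in the IRF4 arm, Irf7 from 147 to 158 and Bst2 from 265 to 312. For the control arm Usp18 went from 27.7 to 16.5, Irf7 from 60.1 to 132 and Bst2 from 222 to 173. Rsad2 went from 6.14 to 26.3 CPM in the IRF4 arm and, for the control arm, from 4.62 to 41.3. These Rsad2 levels rest on 4 and 7 UMIs in the IRF4 arm and 1 and 5 in the control arm, with overlapping intervals. Pdcd1 went from 314 to 169 and from 116 to 33.02 CPM, and Cd74, the gene of the MHC class II invariant chain, from 123 to 933 and from 832 to 4186. The summed level of 7 other interferon-induced genes (Isg15, Usp18, Irf7, Rsad2, Oasl2, Bst2 and Rtp4) climbed with the Ifit count on both sides of it. In the IRF4 arm the sum was 261 CPM in cells with 0 Ifit UMIs, 477 with 1, 653 with 2, 790.1 with 3 and 2809 (2654 to 2970.1) with 12 or more. The control-arm sums were 261, 516, 532, 727 and 2110.2 (1886 to 2354) in the same classes. On this sum the chosen cells are the upper range of a graded measure. At least 4 of the 7 genes were detected in 85 of 134 cells (63.4%) and 30 of 41 (73.2%), against 5.87% and 5.44% of other CD8 cells. None of the 7 was detected in 2 and 3 of the interferon-stimulated cells.

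**Figure D1:**
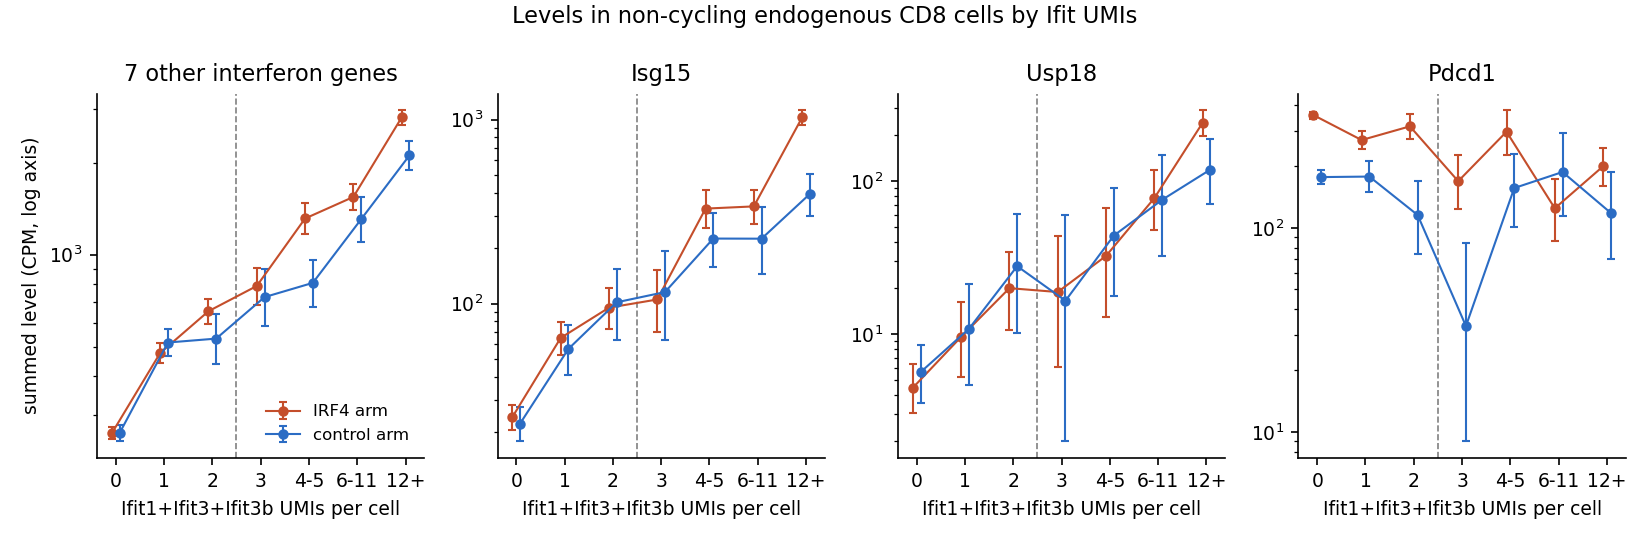
Summed level (CPM, log axis) of 7 other interferon genes, Isg15, Usp18 and Pdcd1 in non-cycling endogenous CD8 cells by Ifit1+Ifit3+Ifit3b UMIs per cell, with 95% Poisson bars for counting error; the dashed line is the threshold of 3 UMIs. The sum of the 7 genes spans 261 to 2809 CPM (IRF4 arm) and 261 to 2110.2 CPM (control arm) and climbs on both sides of the line.

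Some barcodes also carried transcripts of other cell types, among them antigen-presenting cells. The rule required CD8 and CD3 transcripts, so their level is no check of the CD8 label. Together Cd8a, Cd8b1, Cd3d, Cd3e and Cd3g stood at 4920 (IRF4 arm) and 4072 CPM (control arm) in the interferon-stimulated cells, against 5140 and 4550 in the other CD8 cells. Cd4 was at 0, as the rule asks. However, 6 of 134 (4.48%) and 9 of 41 (21.95%) had at least 50 UMIs of the MHC class II genes Cd74, H2-Aa, H2-Ab1 and H2-Eb1 per 10000, against 9 of 1040 (0.865%) and 27 of 496 (5.44%) other CD8 cells. These barcodes were deep, with medians of 23861.5 and 26684 UMIs, and held 97.8% and 99.4% of the Cd74 UMIs of the interferon-stimulated cells. Leaving them out lowered the summed UMIs from 1194020 to 1021895 in the IRF4 arm and from 539255 to 267272 in the control arm. They therefore weigh heavily in the control-arm levels of the interferon-stimulated cells. All 15 also had Cd8b1 and Cd3e UMIs. Of the 9 macrophage and monocyte markers, the sum was 184 against 98.0 CPM in the IRF4 arm and, for the control arm, 1140 against 547. Of the 5 dendritic cell markers it was 79.6 against 14.7 and 256 against 37.5 CPM, and without the class II barcodes all 5 were at 0 in the control arm. Results are therefore given with and without these barcodes where the difference matters, a choice made after seeing the data. Without them macrophage and monocyte markers were at 95.9 CPM in the IRF4 arm but still at 1381 CPM in the control arm, where 1 cell held at least 50% of the C1qb UMIs. Beyond that, the part of such barcodes in the results was not tested.

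**Figure D2:**
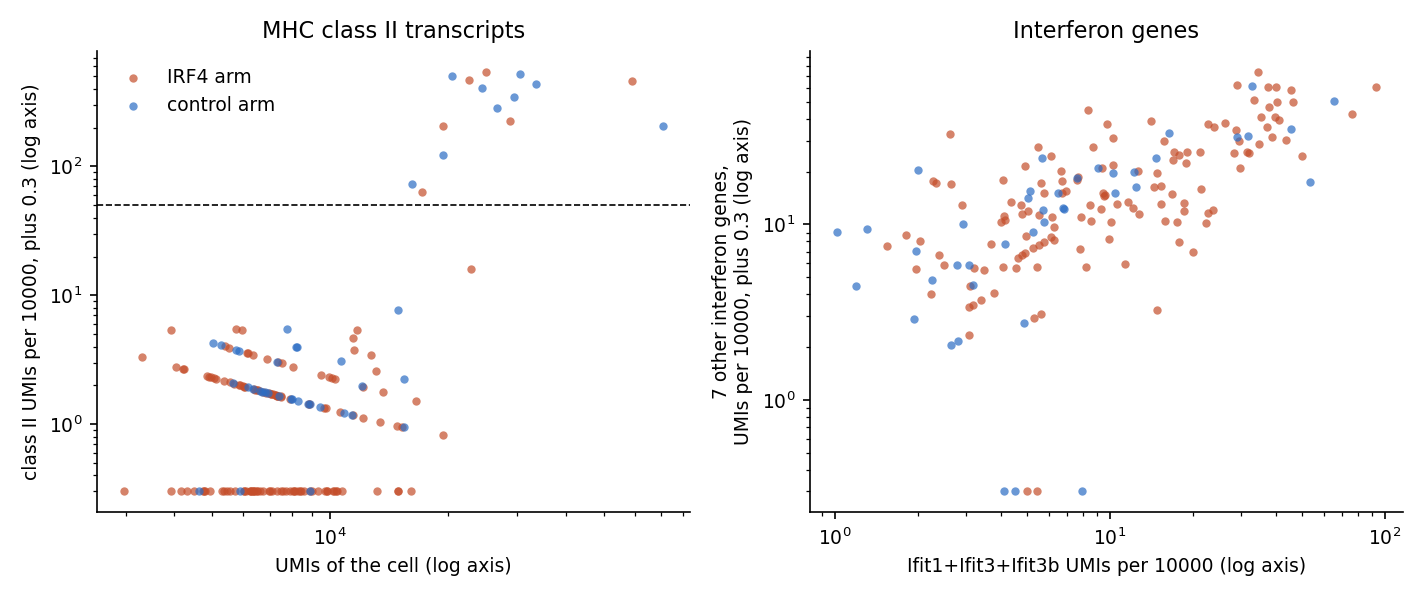
Each point is 1 of the 175 interferon-stimulated cells. Left, class II UMIs per 10000 against the depth of the cell (log axes), with the limit of 50 dashed, above which lie 6 and 9 cells of the IRF4 and control arms, all of them deep; right, 7 other interferon genes against the Ifit genes, each as UMIs per 10000 (log axes), which climb together.

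The cells used many T cell receptor genes and few of them the receptor segment of the transferred cells. A Trbv gene, which encodes the variable part of the receptor beta chain, was seen in 34 of 134 and 12 of 41 interferon-stimulated cells, with 13 and 8 different genes. The most used was Trbv12-2 in the IRF4 arm, with 7 cells, and Trbv13-3 in the control arm, with 4. Trbv14, the segment of the Pmel-1 receptor, was in 3 of those 34 cells and 1 of those 12. In transferred CD8 cells below the threshold it was in 218 of 220 and 958 of 986 cells with a Trbv UMI.

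Interferon-stimulated cells were a larger share of non-cycling endogenous CD8 cells in the IRF4 arm than in the control arm. The share was 11.4% (9.65 to 13.4) against 7.64% (5.53 to 10.2), a ratio of 1.49 (1.07 to 2.09). With each cell thinned to 2000 UMIs and asked for 2 Ifit UMIs, it was 6.98% (5.59 to 8.60) against 3.35% (1.998 to 5.25), a ratio of 2.08 (1.26 to 3.43), with no cell left out as too shallow. Without the class II barcodes it was 11.04% against 6.39%, a ratio of 1.73 (1.19 to 2.51). By depth, the share was higher in the IRF4 arm in cells of under 6000 UMIs (9.497% against 5.98%), of 6000 to 10000 (13.2% against 6.90%) and of 10000 to 20000 (10.6% against 7.69%). It was lower in cells of 20000 UMIs or more, 5 of 44 (11.4%) against 7 of 42 (16.7%), where the intervals overlap widely. With 1 library in each arm, the vector and the library cannot be told apart.

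Other classes of the same libraries showed which cells carried Ifit transcripts at a matched depth. After thinning, 2 or more Ifit UMIs were in 8.67% (5.84 to 12.3) of CD4 T cells without Foxp3 in the IRF4 arm and, for the control arm, 1.63% (0.447 to 4.13). CD4 T cells with Foxp3 had 7.69% (2.54 to 17.05) and 0% (0 to 8.22), 5 of 65 and 0 of 43 cells. Lyz2-high myeloid cells had 8.43% (6.59 to 10.6) and 4.24% (3.17 to 5.54). Natural killer cells had 1.01% and 0.448%, B cells 1.71% and 1.86%, and cycling CD8 cells 1.78% and 1.92%. Without thinning, the share of natural killer cells past 3 UMIs was 1.25% and 0.895%, at medians of 4975 and 5022 UMIs, and is given as a background. Non-cycling CD8 cells lay above it in both arms, at medians of 7289 and 8004 UMIs. Among transferred non-cycling CD8 cells 3 of 250 (1.20%) in the IRF4 arm and, for the control arm, 33 of 1184 (2.79%) passed 3 UMIs, at median depths of 9845 and 11247 UMIs.

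**Figure D3:**
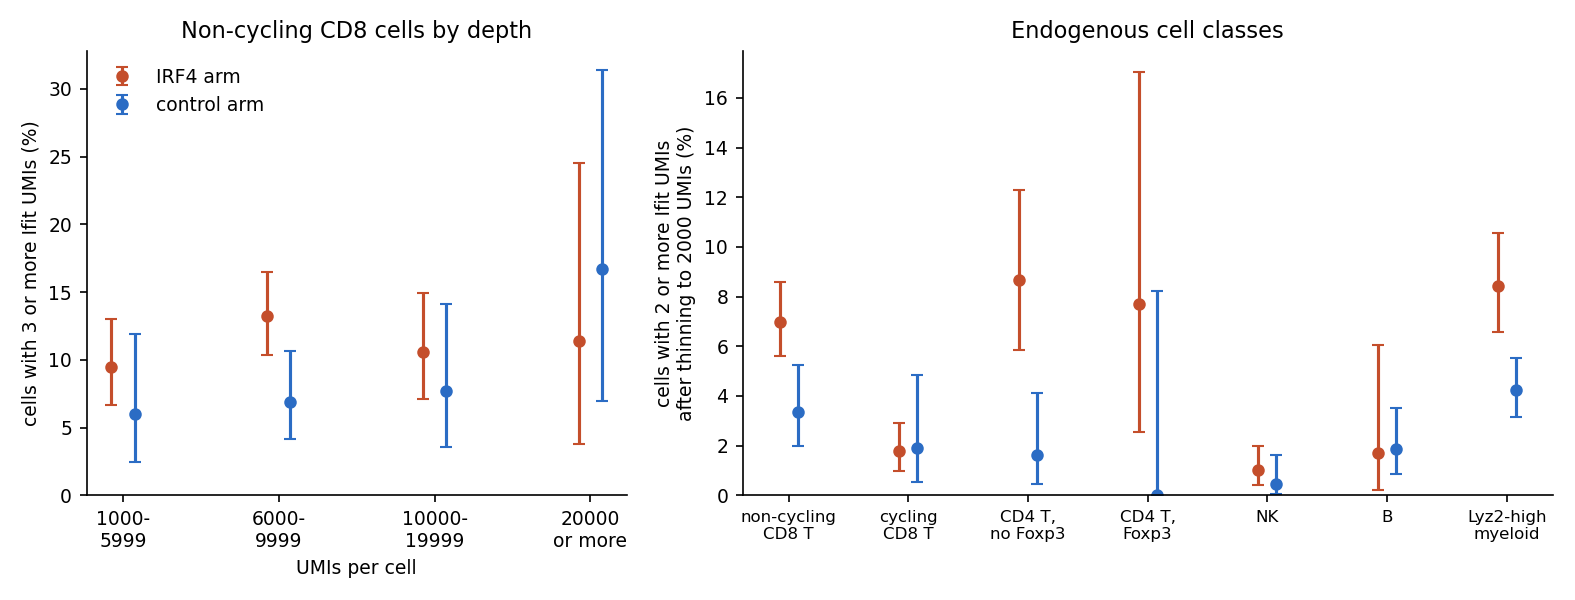
Left, share of non-cycling endogenous CD8 cells with 3 or more Ifit UMIs by UMIs per cell; right, share of each endogenous class with 2 or more Ifit UMIs after thinning to 2000 UMIs; bars are exact 95% intervals for counting error. The IRF4 arm lies above the control arm in the first 3 depth classes and in non-cycling CD8 T, both CD4 T, natural killer and myeloid cells. It lies below in cycling CD8 T and B cells. Bars overlap in each depth class and in CD4 T cells with Foxp3, natural killer, cycling CD8 T and B cells.

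Type I interferon transcripts were not detected in these cells, while interferon-gamma transcripts were. Ifnb1, the gene of interferon-beta, had 79 UMIs in 8 kept cells of the endogenous IRF4 library and 247 UMIs in 18 of the control library, and none of those cells was an interferon-stimulated CD8 cell. Of the interferon-alpha genes, 1 UMI of Ifna16 was found in the endogenous IRF4 library and 1 of Ifna4 in the endogenous control library, neither in these cells. Ifng, the gene of interferon-gamma, which activated T cells make, was in 55 of 134 and 13 of 41 interferon-stimulated cells, at 86.3 CPM against 126 in other CD8 cells of the IRF4 arm and 37.1 against 120 in the control arm. The ratio was 0.684 (0.554 to 0.838) and 0.308 (0.187 to 0.480). The share of cells with an Ifng UMI went the other way. It was 41.0% of interferon-stimulated against 34.7% of other CD8 cells in the IRF4 arm, and 31.7% against 24.8% in the control arm. After thinning, the share was 16.4% against 15.8% in the IRF4 arm and, for the control arm, 4.88% against 8.67%, with overlapping intervals in both.

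The comparisons of interferon-stimulated with other CD8 cells describe the rule's own contrast and are not evidence beyond it. Genes counted as measured if 1 of the compared sets reached 25 CPM, and as higher or lower past a fold of 1.5 either way, on log2 values with a pseudocount of 1 CPM. For the IRF4 arm 354 of 4979 measured genes (7.11%) were higher and 129 (2.59%) lower. For the control arm, with fewer cells, 642 of 5190 (12.4%) were higher and 459 (8.84%) lower. Of 4724 genes measured in both arms, 211 (4.47%) were higher in both and 29 lower in both. Counts of lists below are read against these shares.

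Some of the signalling genes passed the fold and others did not. Of the 6 measured interferon receptors and kinases, 2 were higher in each arm, with medians of 0.38 and 0.32 on the log2 scale, and in both arms the median over all genes was near 0 (-0.02 and -0.01). Ifnar1 stood at 109 against 88.4 CPM in the IRF4 arm and, for the control arm, 94.6 against 87.0, and Ifnar2 at 92.1 against 66.2 and 120.5 against 83.3, none of them past the fold. Jak2, a kinase of the interferon-gamma receptor, was past it in both, at 77.0 against 48.6 and 105.7 against 54.2 CPM. Without the class II barcodes the control-arm ratio of Jak2 was 0.988 (0.517 to 1.73). Of the transcription factors 5 of 8 and 6 of 9 were higher. Irf7, which amplifies interferon production, stood at 250.4 against 63.3 and 145 against 42.0 CPM, ratios of 3.96 (3.43 to 4.56) and 3.44 (2.62 to 4.49). Irf4 itself was sparse, with 6 UMIs in 5 cells of the IRF4 arm (5.03 CPM) and 2 UMIs in 2 cells of the control arm (3.71 CPM), against 7.29 and 4.74 CPM in other CD8 cells.

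The whole list of ISG15 conjugation was higher, with 6 of 6 genes past the fold in both arms and medians of 1.97 and 1.43. Isg15 was measured at 538 CPM in interferon-stimulated and 35.9 in other CD8 cells of the IRF4 arm, and at 248 and 31.1 in the control arm. Its ratios were 14.97 (13.1 to 17.2) and 7.99 (6.28 to 10.1), and without class II barcodes the control-arm ratio was 13.98 (10.4 to 18.8). Usp18 stood at 116 against 6.41 and 64.9 against 7.42 CPM, ratios of 18.03 (13.2 to 24.95) and 8.75 (5.33 to 14.3), the second being 16.5 (9.36 to 29.0) without those barcodes. Herc6, the ISG15 ligase of mice, stood at 186 against 47.9 and 113 against 47.4 CPM. Each of these was past the fold in both arms.

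Among sensors of foreign RNA and the oligoadenylate synthetases, 11 of 12 measured genes were higher in the IRF4 arm and, for the control arm, 8 of 10, with medians of 2.24 and 1.47. Without class II barcodes the medians were 2.30 and 1.86. Ifih1, the gene of the sensor MDA5, stood at 107 against 17.9 and 68.6 against 17.1 CPM, ratios of 5.99 (4.71 to 7.60) and 4.01 (2.65 to 5.98). Eif2ak2, the gene of the kinase PKR, stood at 147 against 32.0 and 122 against 32.6 CPM. Zbp1, a sensor of Z-form nucleic acid, stood at 378 against 126 and 208 against 87.4 CPM. Oasl2 stood at 46.1 against 3.87 and 70.5 against 9.27 CPM, but without class II barcodes it was under 25 CPM in both sets of the control arm, with a ratio of 2.12 (0.542 to 6.01). Of the sensors of DNA and the p200 family, 5 of 7 and 3 of 7 were higher, with medians of 1.14 and 0.50. Samhd1, which hydrolyses nucleotides, stood at 767 against 286 and 692 against 286 CPM.

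Antiviral effectors other than the Ifit genes of the rule were higher in 16 of 17 and 15 of 17 measured genes, with medians of 2.16 and 1.42. Without class II barcodes these medians were close between the arms, at 1.993 and 1.997. Rsad2, the gene of viperin, had the highest ratio of the genes ranked in both arms, at 119 against 3.31 CPM in the IRF4 arm and, for the control arm, 215 against 5.36. There 1 control-arm cell held at least 50% of its UMIs, and without class II barcodes the ratio was 18.05 (9.77 to 33.6) in place of 40.1 (26.1 to 64.0). Mx1, a gene of the Mx GTPase family, stood at 131 against 8.95 and 66.8 against 9.89 CPM, ratios of 14.6 (11.1 to 19.3) and 6.75 (4.26 to 10.6). Ifit2 stood at 113 against 14.7 and 130 against 17.1 CPM, with ratios of 7.69 (6.01 to 9.85) and 7.59 (5.44 to 10.6). Bst2, the gene of tetherin, stood at 504 against 160 and 276 against 163 CPM, ratios of 3.15 (2.86 to 3.47) and 1.70 (1.41 to 2.02). Ifitm1, Ifitm2 and Ifitm3, membrane proteins that block virus entry, were among the 12 highest, but 2 cells held at least 50% of the UMIs of each in the IRF4 arm. So were Ifi205, a p200-family gene, and Naaa, H2-Ab1 and H2-Eb1, which antigen-presenting cells express. Several of these ratios shrank without class II barcodes. Ifi205 then had a ratio of 1.45 (0.273 to 4.96) in place of 11.2 in the IRF4 arm and, for the control arm, 1.32 (0.0310 to 8.945) in place of 8.65, under 25 CPM in every set. Ifitm2 was at 1.42 (0.870 to 2.21) in the IRF4 arm and, for the control arm, 5.16 (3.67 to 7.14), while Ifitm1 and Ifitm3 were past the fold in both arms. Naaa was at 0.434 (0.116 to 1.16) and 4.76 (1.99 to 10.3), and H2-Ab1 at 1.62 (1.11 to 2.30) and 1.38 (0.814 to 2.20). H2-Eb1 had a ratio of 0.917 (0.521 to 1.515) in the IRF4 arm and, for the control arm, 0.526 (0.168 to 1.255).

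The broader programme was higher too. Of PARP, TRIM and nuclear-body genes 19 of 21 and 19 of 22 were higher, with medians of 1.53 and 1.19. Without class II barcodes the medians were 1.61 and 1.46. Parp14, an ADP-ribosyltransferase, stood at 281 against 92.5 and 202 against 80.6 CPM, and Trim30a at 301 against 87.6 and 195 against 82.4. Of the schlafens 4 of 4 and 5 of 5 measured genes were higher, among them Slfn1 at 314 against 123 and 239 against 98.7 CPM. Of the GTPases of the interferon-gamma response 16 of 16 and 15 of 16 were higher, with medians of 1.34 and 1.16. Leaving out class II barcodes, these medians were 1.47 and 1.70, the control arm then having the larger. Igtp stood at 470 against 161 and 341 against 124 CPM, ratios of 2.92 (2.64 to 3.22) and 2.75 (2.32 to 3.25). Gbp2, a guanylate-binding protein, stood at 346 against 99.3 and 271 against 78.9 CPM. MHC class I genes, by contrast, had medians of 0.35 and 0.32 with 3 of 17 and 1 of 17 past the fold. Without class II barcodes 6 of 17 were higher in the control arm (median 0.49), against 13.6% of all genes there. For the IRF4 arm it was then 4 of 17 (median 0.33), against 318 of 4934 genes. With all barcodes, H2-K1 stood at 4020 against 3820 and 3102 against 3076 CPM and B2m, the light chain, at 2727 against 2452 and 2481 against 2200. Feedback inhibitors were higher in 4 of 9 and 2 of 9, among them Socs1 at 174 against 78.0 CPM in the IRF4 arm and, for the control arm, 90.9 against 68.0, short of the fold.

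Promoter letters were read for the same lists. The core lay in 1131 of 32851 windows of the table (3.44%) and in 3.99% of 27025 genes. It was in 9 of 10 GTPases of the interferon-gamma response that matched the table by symbol, 10 of 19 antiviral effectors, 7 of 12 RNA sensors, 5 of 9 DNA sensors and p200 genes, 3 of 7 schlafens, 6 of 18 PARP and TRIM genes and 5 of 14 MHC class I genes. Fewer of the other interferon lists held it, with 2 of 8 transcription factors, 1 of 5 ISG15 conjugation genes, 1 of 8 feedback inhibitors and 0 of 7 receptors and kinases. It was in 0 of 11 stem and memory genes and 2 of 12 inhibitory receptor genes. Of the 12 genes with the highest ratios over both arms, ranked with all barcodes, 9 matched the table and 5 held the core. Those 5 were Ifi205, Ifitm2, Ifitm3, Isg15 and Rsad2. Without class II barcodes Ifi205 fell short of the fold in both arms and Ifitm2 in the IRF4 arm. Of the 12 genes with the lowest ratios, 10 matched and 0 held the core. Stretches of a GTPase, a guanylate-binding protein and tetherin are shown because these lists were higher in both arms, with capitals as above.
Igtp, chr11:58199510-58199543, plus strand: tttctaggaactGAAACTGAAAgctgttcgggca
Gbp2, chr3:142620592-142620625, plus strand: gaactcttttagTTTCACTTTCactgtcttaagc
Bst2, chr8:71537575-71537614, minus strand: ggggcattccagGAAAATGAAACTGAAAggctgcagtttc
Rsad2, chr12:26456551-26456584, minus strand: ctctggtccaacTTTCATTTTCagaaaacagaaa
The match begins 34 bases before the start site in Igtp, 59 in Gbp2, 130 in Bst2 and 120 in Rsad2. Irf7, Oasl2, Ly6c2 and Pdcd1 had no match in this window, and Usp18, Rtp4 and Mx1 are named only. A match is a description of letters, not a measured site.

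Inhibitory receptor and exhaustion genes were lower on balance. For the IRF4 arm 7 of 12 measured genes passed the fold downwards and 2 upwards (median -0.72). For the control arm it was 4 of 14 and 2 (median -0.45). Without class II barcodes, where 13.6% of all genes in the control arm were higher and 11.4% lower, 9 of 13 were lower (median -0.96). Pdcd1, the gene of PD-1, stood at 193 against 340.0 CPM in the IRF4 arm, a ratio of 0.569 (0.496 to 0.651), and at 124 against 175 in the control arm, 0.711 (0.546 to 0.912), short of the fold. Without class II barcodes Pdcd1 was past the fold downwards in both arms. Tox, a transcription factor of exhausted T cells, stood at 84.6 against 174 and 66.8 against 131 CPM, ratios of 0.487 (0.394 to 0.596) and 0.509 (0.354 to 0.713), and the second was 0.777 (0.516 to 1.13) without class II barcodes. Nr4a2, which T cell receptor signals induce, stood at 34.3 against 82.1 and 14.8 against 70.5 CPM. Lag3 stood at 111 against 171 and 122 against 166 CPM. With class II barcodes left out, Lag3 was past the fold downwards in the control arm only. Havcr2, the gene of TIM-3, stood at 31.8 against 65.6 CPM in the IRF4 arm and, for the control arm, 70.5 against 79.3, where 1 of the 6 cells with a UMI held at least 50% and the 32 cells below the class II limit had none. Cd274, the gene of the ligand PD-L1 and an interferon target, went the other way, at 122 against 39.6 and 185 against 51.5 CPM.

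Memory and effector genes gave no single direction over both arms. Of stem and memory genes 0 of 14 were past the fold in the IRF4 arm (median -0.13), and 8 of 15 were lower in the control arm (median -0.65), which became 2 of 14 without class II barcodes. Tcf7, the memory transcription factor TCF-1, stood at 153 against 160.3 and 126 against 164 CPM. Il7r stood at 231 against 222 CPM in the IRF4 arm and, for the control arm, 173 against 271. Gzmb, the gene of granzyme B, stood at 910 against 745 and 923 against 627 CPM and Gzmk at 296 against 351 and 156 against 127, none past the fold. Leaving out class II barcodes put Gzmk past it in the control arm, at 1.70 (1.29 to 2.21). Of 10 and 11 measured cytokine and chemokine genes 3 and 5 were lower, among them Ccl4 at 306 against 611.5 and 165.0 against 658 CPM, Ccl3 at 157 against 291 and 148 against 382, and Xcl1 at 66.2 against 144 and 24.1 against 123. Cxcl10, a chemokine that interferon induces, was higher, at 147 against 19.6 and 111 against 24.3 CPM. The other genes of the 12 lowest in both arms were Nrgn, Rasgrp2, Tnfrsf9, Osbpl3, Abcb9, Dut and Mrps36.

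Ly6 genes, induced by interferon in T cells, differed in pattern between arms, which was not tested. Ly6a, the gene of Sca-1, stood at 1174 against 548 CPM in the IRF4 arm and, for the control arm, 1126 against 466, ratios of 2.14 (2.02 to 2.27) and 2.42 (2.21 to 2.65). Ly6c2, a marker of effector and memory CD8 cells, stood at 1546 against 774 CPM in the IRF4 arm, a ratio of 1.996 (1.895 to 2.10), and at 690 against 819 in the control arm, 0.842 (0.755 to 0.937). Without class II barcodes the control-arm ratio of Ly6c2 was 1.21 (1.07 to 1.37), so its direction there changed with those barcodes. Cells with Ly6c2 but no Pdcd1 UMI were 51.5% of interferon-stimulated and 40.1% of other CD8 cells in the IRF4 arm, and 41.5% and 45.2% in the control arm. By state, 14.2% of Ly6c2-only, 13.2% of double-positive, 5.81% of Pdcd1-only and 3.61% of double-negative cells passed the threshold in the IRF4 arm, at medians of 6664.5, 8609, 8508 and 5705 UMIs. The control-arm shares were 7.05%, 9.94%, 8.77% and 2.94%.

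The programme in the interferon-stimulated endogenous cells was also seen in transferred and cycling CD8 cells past the same threshold. In the 33 transferred control cells 861 of 5290 genes (16.3%) were higher than in the 1151 below it and 311 (5.88%) lower. Of their measured genes 6 of 6 for ISG15 conjugation, 11 of 11 RNA sensors, 15 of 17 antiviral effectors and 15 of 15 GTPases were higher, with medians of 3.05, 2.82, 2.76 and 1.72. Isg15 stood at 656 against 13.5 CPM there. In the 57 cycling endogenous cells of the IRF4 arm 281 of 5167 genes (5.44%) were higher and 84 (1.63%) lower, with 6 of 6, 10 of 10, 16 of 17 and 14 of 15 in those lists. The inhibitory receptor list had a median of -0.22 in the transferred cells, with 2 of 10 measured genes higher and 3 lower. In the cycling cells its median was -0.19, with 2 of 12 higher and 1 lower. Whether the lists differ between these sets was not tested.

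**Figure D4:**
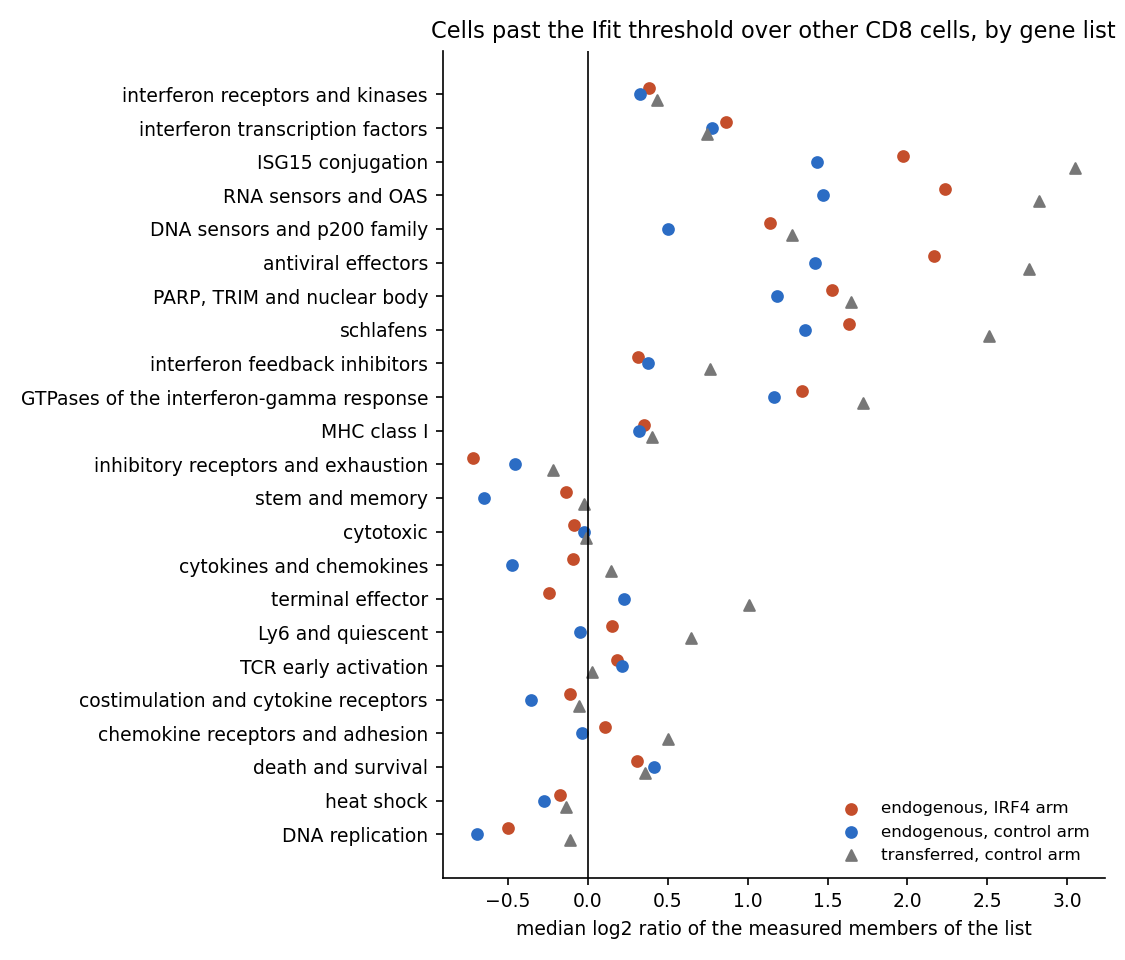
Median log2 ratio of cells past the Ifit threshold over other CD8 cells for each gene list, in both endogenous arms and in transferred control cells. The interferon product lists lie right of 0 in all 3 sets, MHC class I sits at 0.32 to 0.40, and inhibitory receptors lie left of 0.

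Interferon-stimulated cells of the IRF4 arm were set against those of the control arm. Of 5214 measured genes 599 (11.5%) were higher and 629 (12.1%) lower, against 59 (1.2%) and 196 (4%) of 4898 in the other CD8 cells, where far more cells were summed. Both sets share the libraries, so library differences enter both. Isg15 stood at 538 against 248 CPM, a ratio of 2.16 (1.79 to 2.63), while in other CD8 cells it was 35.9 against 31.1, 1.15 (0.949 to 1.41). Of 20 antiviral effectors, the Ifit genes of the rule included, 11 were higher and 4 lower (median 0.67), and of 12 RNA sensors 6 were higher and 1 lower (median 0.52). Ifit1, Ifit3 and Ifit3b, which chose the cells, were among those 11. The count and median of the antiviral effectors thus draw partly on the rule and are a description only. With class II barcodes left out, 11.9% of 5194 measured genes were higher and 13.2% lower, and of the same antiviral effectors 4, Ifit3b among them, were higher and 3 lower (median 0.34). Of the RNA sensors 4 were then higher and 0 lower (median 0.47). Leaving class II barcodes out, the ratio of Isg15 was 1.74 (1.385 to 2.197), and that of Usp18 was 1.205 (0.796 to 1.884) in place of 1.78 (1.22 to 2.66). Schlafens had a median of -0.04.

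Of 16 measured cytotoxic genes 4 were higher in the IRF4 arm and 4 lower (median 0.29), and without class II barcodes 4 and 1 of 15 (median 0.39). Among the 10 genes with the highest ratios, Gzma, the gene of granzyme A, stood at 521 CPM in the IRF4 arm and, for the control arm, 74.2, a ratio of 7.02 (5.10 to 9.93), and Eomes, a transcription factor of memory and exhausted CD8 cells, at 91.3 against 12.98, 7.03 (3.30 to 17.9). In other CD8 cells the same genes stood at 303 against 106 and 94.7 against 36.1 CPM, ratios of 2.85 (2.59 to 3.14) and 2.63 (2.23 to 3.11). At least 50% of the Gzma UMIs lay in 4 cells of the IRF4 arm and 2 of the control arm. The sum of 5 natural killer cell markers was also higher in the IRF4 arm. In interferon-stimulated cells it was 104.7 against 3.71 CPM, with a UMI in 14 of 134 and 2 of 41 cells. In other CD8 cells it was 85.08 against 15.04 CPM. The part of natural killer transcripts in the ratios of Gzma and Eomes was not tested. The other genes of the 10 highest were Maf, Tmem140, Samd3, Odc1, Arsb, Ssbp2 and the chemokines Ccl2 and Ccl7, for which 1 cell of the IRF4 arm held at least 50% of the UMIs. Of the 10 lowest, Gzmc, Gzmd, Gzme, Gzmf and Gzmg, granzymes in 1 gene cluster, Pf4, S100a8, Ccl22 and C1qb each had at least 50% of their control-arm UMIs in 1 cell, and no Gzmc UMI was left there without class II barcodes. The remaining one was Hbb-bs, a haemoglobin gene at 0 in the IRF4 arm and, for the control arm, 61.2 CPM, against 0.442 and 1133 in other CD8 cells. Erythroid markers summed to 0.838 and 76.0 CPM in interferon-stimulated and 0.552 and 2065 CPM in other CD8 cells of the IRF4 and control arms.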

How the data were processed

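The 4 libraries of single-cell 3′ RNA, 1 per group by the labels, were analysed, and the members and gene lists were chosen with earlier results of these data known. The authors deposited whole UMI counts per gene and barcode (28692 genes by identifier and symbol, 58 symbols with more than 1 identifier), with mm10, STAR 2.6 and Cell Ranger 3.0.2 named in the submitters' processing notes. Which gene annotation they used is not given in the sources used; the labels' protocol also speaks of a nucleus suspension, although cells were sorted. Kept barcodes (15132 of 17711) had 1000 or more UMIs, 500 or more genes and no more than 10% mitochondrial UMIs. CD8 cells had at least 2 UMIs of Cd8a and Cd8b1, at least 1 of Cd3d, Cd3e and Cd3g, no Cd4 and under 10 UMIs of Lyz2 per 10000. No doublet caller was run. Doublets were treated by leaving out cells with UMIs of other lineages or over 40000 UMIs, and barcodes with class II transcripts, as alternatives.

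The libraries held 16664323 to 94686409 UMIs. Summed counts were scaled to CPM, with exact Poisson intervals, exact conditional binomial intervals for ratios and exact Clopper-Pearson intervals for shares. The ratio of shares has an interval by the log method. Thinning used seed 1. With 1 library a group no test or p-value was made; the scripts were tested on simulated data. Named genes were fixed genes (the Ifit genes, Usp18, Isg15, Irf7, Irf4, Bst2, Ly6c2, Ly6a, Pdcd1, Lag3, Havcr2, Tox, Tcf7, Il7r, Gzmb, Gzmk, Ifng, Mki67), the 12 highest and 12 lowest over both arms by the less extreme ratio, the 10 highest and 10 lowest between arms, at 50 CPM and 20 UMIs or more, and up to 8 of each list. Some genes are not reported here. Some list members were named for their role after their values were seen. Ribosomal, mitochondrial, predicted and antigen receptor genes were left out of the ranks. Alternatives changed the Ifit threshold, depth, mitochondrial limit, floor, pseudocount, fold, scaling, cell weight and reference cells. Promoters came from RefSeq (GRCm38.p6) and gene positions from the GENCODE annotation of the same assembly. Tools were Python 3.11.15, numpy 2.4.6, scipy 1.17.1, pandas 2.3.3 and matplotlib 3.10.9.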

Additional observations from a re-analysis of the deposited data

Results flagged for a closer look

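In 4 cytotoxic genes interferon-stimulated cells lay above other CD8 cells in the control arm and below them in the IRF4 arm, past the fold each way. The difference between the arms was not tested, since each arm is 1 library. The log2 ratio of the IRF4 arm minus that of the control arm was -6.07 for Gzmc, -7.37 for Gzmf, -1.73 for Prf1, the gene of perforin, and -1.24 for Serpinb6b. In the control arm 1 cell held at least 50% of the UMIs of Gzmc, Gzmf and Prf1, and 2 cells those of Serpinb6b. Without class II barcodes the control-arm ratio was 0.219 for Prf1, 0.712 for Serpinb6b and 0.00734 (0.000186 to 0.0409) for Gzmf, and Gzmc had no UMI in the remaining 32 cells.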

How the results depend on the processing

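The IRF4-arm share over that of the control arm stayed between 1.28 and 2.08 over 9 alternatives. Counts of genes past the fold moved more. For interferon-stimulated over other cells in the IRF4 arm (354 higher, 129 lower) they were 230 and 75 with 2 or more Ifit UMIs, 650 and 389 with a floor of 10 CPM, 123 and 17 with 100 CPM, 1846 and 1605 with no floor, and 198 and 24 at a ratio of 2. The lower count was 252 with 5 or more Ifit UMIs, 211 with 3 or more per 10000, 198 without cells of other lineages, 196 at 5% mitochondrial UMIs and 57 with a pseudocount of 10 CPM. In the control arm (642 and 459) the counts were 1096 and 1043, 170 and 68, 2158 and 2910 at those floors and 317 and 118 at a ratio of 2, and the lower count was 285 and 706 with 2 and 5 Ifit UMIs and 288 with that pseudocount. Between arms (599 and 629) they were 1196 and 1187, 137 and 132, 3106 and 2565 at those floors and 157 and 302 at a ratio of 2, with 383 higher at 2 Ifit UMIs. A floor or fold sets these counts by construction; the cause of the other moves was not tested.

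Among genes named for a comparison and past the fold in it, 24 log2 ratios changed sign. With 3 or more Ifit UMIs per 10000 these were Naaa -1.09, H2-Ab1 -0.10 and H2-Eb1 -0.76 in the IRF4 arm, Ifitm1 -1.44 in the control arm, and Ccl2 -2.39, Ccl7 -1.99 and Gzmc 2.06 between arms. Without class II barcodes they were Naaa -1.03 and H2-Eb1 -0.12 in the IRF4 arm, H2-Eb1 -0.89 in the control arm, and Havcr2 4.61, Ccl2 -3.28, Ccl7 -4.75 and Gzmc 1.98 between arms. In cells of 5000 to 20000 UMIs they were Naaa -0.60 in the IRF4 arm, and Havcr2 1.86 and Gzmc 2.04 between arms. Between arms they were Ccl2 -2.10, Ccl7 -1.18 and Gzmc 2.10 without cells of other lineages, Ccl2 -2.29 and Ccl7 -1.95 with 5 or more Ifit UMIs, and Havcr2 0.16 with equal weight per cell. Il7r was 0.046 in the control arm at 5% mitochondrial UMIs. Without class II barcodes the control arm had 0 UMIs of Gzmc and Havcr2, so those values depend on the pseudocount. Values short of the fold, and genes named for another comparison, could also change sign without class II barcodes, such as Ly6c2 in the control arm (-0.25 to 0.27) and, between arms, Rsad2 (-0.85 to 0.48), Tnfrsf9 (-0.89 to 1.10), Tox (0.34 to -0.36) and Naaa (0.30 to -2.82). No list median past the fold changed sign under any alternative, but smaller ones did without class II barcodes. Among them were stem and memory genes in the IRF4 arm (-0.13 to 0.04), terminal effector (0.23 to -0.23) and Ly6 genes (-0.05 to 0.29) in the control arm, and inhibitory receptors between arms (-0.15 to 0.60). Depth limits the control arm most, where 41 cells were summed. No paired analysis was possible because each group was 1 library and the labels give no replicate numbers.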
